A study of Mus musculus with 54 samples.

Results

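The cytosolic ribosomal protein genes of the mouse suprachiasmatic nucleus (SCN), the paired hypothalamic nucleus that holds the master circadian clock, were followed over a light/dark cycle. Members were the protein-coding genes of the count table whose symbol begins with Rpl or Rps and a number, together with Rplp0, Rplp1, Rplp2 and Rpsa. Symbols that hold -ps or begin with Rps6k or Gm were dropped. Members also needed at least 1 read in more than 6 of 18 libraries. Of 84 symbols that fitted, 82 passed the read filter, 49 of the large and 33 of the small subunit, among 18941 genes tested. Rpl3l, with 34 reads in 4 libraries, and Rpl10l, with 0 reads, fell outside the filter. The symbol rule also takes in Rps19bp1, which encodes a binding partner of a ribosomal protein and not a subunit of the ribosome. All libraries are named WT, and all mice were male C3H/HeH animals of 10-12 weeks. They were housed in 12 h of light and 12 h of darkness, and no other treatment is named. By label the groups differ in the zeitgeber time (ZT, hours after lights on) of collection: ZT2, ZT6, ZT10, ZT14, ZT18 and ZT22. Whether they also differ in sequencing batch is not given. Each timepoint has 3 replicates, A to C, and each replicate is laser-captured SCN tissue pooled from 5 mice. Every replicate was sequenced as 3 technical replicates, which were combined. Because the tissue is bulk, fewer cells of a type and less RNA per cell cannot be told apart in any value below.

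Each cytosolic ribosome holds 1 copy of nearly every ribosomal protein, so cells make these proteins in matched amounts, from abundant and stable messages. Most of these messages begin with a C followed by a run of pyrimidines, the 5′ terminal oligopyrimidine (TOP) tract, through which the kinase complex mTORC1 adjusts their translation. Large-subunit proteins (Rpl) surround the peptidyl transferase centre, small-subunit proteins (Rps) surround the decoding site, and the acidic proteins Rplp0, Rplp1 and Rplp2 form the stalk that recruits translation factors.

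Start sites are shown for Rpl38 and Rps15a, among the members most like the family in course, and for members less like it (the rest). They show the place where the tract lies in those members that carry it. Each line gives the 20 bases before and the 10 bases from the annotated first base of the transcript, 5′ to 3′, with a pyrimidine tract that begins within 5 bases of that start in capitals, which can run past the end of the line, from RefSeq on GRCm38.p6.
Rpl38 (chr11:114668560-114668589, plus strand): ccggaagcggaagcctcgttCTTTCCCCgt
Rps15a (chr7:118116138-118116167, minus strand): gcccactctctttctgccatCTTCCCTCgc
Rplp2 (chr7:141447631-141447660, plus strand): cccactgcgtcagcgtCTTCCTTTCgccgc
Rps10 (chr17:27635235-27635264, minus strand): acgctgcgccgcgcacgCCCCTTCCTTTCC
Rpl31 (chr1:39367831-39367860, plus strand): cacctcttcctcctcgCCTCCCCgtgaccc
Rpl27a (chr7:109519175-109519204, plus strand): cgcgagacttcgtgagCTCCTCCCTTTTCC
Rpl15 (chr14:18270977-18271006, minus strand): ggattgtgggagaaagCCTTCTTCCTTTCC
Rpl13 (chr8:123102330-123102359, plus strand): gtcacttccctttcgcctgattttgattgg
Rpl4 (chr9:64173367-64173396, plus strand): agtctttccttttcctgtgggagcagccgg
Rpl7l1 (chr17:46782647-46782676, minus strand): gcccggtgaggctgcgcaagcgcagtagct
The tract was defined as a C followed by at least 4 pyrimidines and beginning within 5 bases of the annotated start. It was found in 30 of the 62 members with a promoter entry (48.4%) and in 21.2% of all 27025 symbols of the promoter table. Members with a tract and members without one both occur among those more and among those less like the family in course. Rpl38 and Rps15a have a tract of 8 bases, Rplp2 of 9 and Rps10 of 13. Rpl13, Rpl4 and Rpl7l1 have none that begins within 5 bases of the annotated start. Neither has Rpl23, which is among the members most like the family and is not shown above. Rpl13 and Rpl4 do hold pyrimidine runs further upstream, left in lower case above. In the 300 bases around the start (250 before, 50 after), CCGGAA on either strand, the core of an ETS-type motif, was present in 35 of 62 members (56.5%) against 16.7% of all symbols. AAGATGG, which contains the core of the YY1 motif, was present in 10 of 62 (16.1%) against 7.28%, and CACGTG, the canonical E-box, in 6 of 62 (9.68%) against 8.09%. These matches are descriptions of sequence and say nothing of binding.

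Library totals ranged from 15412981 to 35820945 counted reads, with a median of 25075231, and every library carried at least 412095 reads on the members. The study names sequencing batch, besides timepoint, as a source of separation between its libraries, but the sources used here assign no library to a batch, so batch was not fitted and its part in the results was not tested. Few genes differed between ZT6 and ZT10, between ZT14 and ZT18 or between ZT22 and ZT2, and values within each of these pairs are given beside the others. Both deposited tables hold reads for the same libraries: reads recovered from the normalised table were identical to the counts for at least 92.7% of genes in each library of ZT2, ZT14, ZT18 and ZT22, but for 8.72-12.1% in each library of ZT6 and ZT10. In those 6 libraries recovered reads of the 82 members ran slightly below the counts (median log2 ratio of -0.10 to -0.09 by library). For 12 members the log2 ratio at ZT6 or ZT10 was below -0.4: Rps27, Rps12, Rps27rt, Rpl29, Rpl14, Rplp1, Rpl3, Rps6, Rpl26, Rps25, Rpl22l1 and Rpl17, in order of the gap. With recovered reads the fall from ZT10 to ZT14 turned into a rise for Rps27 and Rps12. It had a positive estimate for Rps27rt that did not pass (0.55 ± 0.28, SE), and no longer passed for Rpl14 and Rplp1. The fall still passed for Rps6, Rpl26, Rps25, Rpl22l1 and Rpl17. Rpl3, which did not pass in the counts, rose by 0.92 ± 0.29 with recovered reads (log2, SE, adjusted p = 0.034, edgeR), and Rpl29 passed with neither. Rps12, a small-subunit protein, had 3186 counted and 21 recovered reads at ZT6, and its log2 difference between ZT14 and ZT10 was -1.71 ± 0.23 with counts and 6.53 ± 0.48 with recovered reads (SE). Replicate A of ZT2 stands apart for 4 of the 79 members with a mean of at least 10 CPM (the count scaled to a common library size by TMM), Rpl36, Rpl8, Rplp0 and Rplp1, which lie there at less than 1/3 of each other ZT2 replicate, as do 2.51% of all 9611 genes at that level. No member does so in another library, although over all genes the share was higher in replicate C of ZT18 (5.28%) and replicate C of ZT6 (3.29%).

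Levels of cell type markers and RNA measures moved with the timepoints. The 8 SCN neuron markers were Avp, Vip, Grp, Six6, Lhx1, Nms, Prok2 and Rgs16. Their summed level was 3879-5135 CPM in the ZT6 and ZT10 libraries and 1220-1730 CPM at ZT14. It was 1797-2223 CPM at ZT18 and 1918-3227 CPM at ZT22 and ZT2. The pan-neuronal markers summed to 3056-4123 CPM at ZT6 and ZT10, 4547-6189 CPM at ZT14, 3634-4669 CPM at ZT18 and 6175-8034 CPM at ZT22 and ZT2. The 8 oligodendrocyte markers, with Mbp among them, summed to 1315-3105 CPM at ZT6 and ZT10, to 4798-6139 CPM at ZT14 and ZT18 and to 2186-4477 CPM at ZT22 and ZT2. The 8 astrocyte markers summed to 2952-3916 CPM at ZT6 and ZT10, 4123-5611 CPM at ZT14 and ZT18 and 6422-8632 CPM at ZT22 and ZT2. Many markers were themselves called cycling by the tests given below: 7 of 8 SCN neuron, 8 of 8 oligodendrocyte, 8 of 8 astrocyte and 3 of 5 pan-neuronal ones. Over all genes 29.9% were. A sum of such markers is therefore no measure of cell number. Of the genes on 7 marker lists, 50 of 52 were tested and none of these had a mean below 1 CPM; the other 2, 1 ependymal and 1 pan-neuronal, were not analysed here. The share of reads on the mitochondrial genome was 6.57-10.3% at ZT6 and ZT10 and 2.75-6.86% elsewhere. The part of these measures in the results below was not tested.

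The family as a whole was high at ZT6 and ZT10, lowest at ZT14 and intermediate at ZT22 and ZT2. Members took 2.78%, 2.36% and 2.42% (ZT2), 3.65%, 4.04% and 3.62% (ZT6), 3.37%, 3.76% and 3.59% (ZT10), 1.38%, 1.71% and 1.60% (ZT14), 1.86%, 1.98% and 2.67% (ZT18) and 2.41%, 2.52% and 2.20% (ZT22) of all counted reads. All 6 libraries of ZT6 and ZT10 lie above the other 12, and the 3 of ZT14 below the rest. As a course that weights each gene equally, the median over the 82 members of log2 CPM minus the gene's own mean was 0.65 ± 0.14 (ZT6), 0.65 ± 0.06 (ZT10), -0.78 ± 0.14 (ZT14), -0.35 ± 0.19 (ZT18), -0.03 ± 0.13 (ZT22) and 0.01 ± 0.16 (ZT2), each with its SD over n = 3 libraries. The residual SD of this course within a timepoint was 0.14. Replicate C of ZT18, at -0.13, lies above replicates A and B (-0.50 and -0.42), and it is also the library with the fewest reads.

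**Figure D1:**
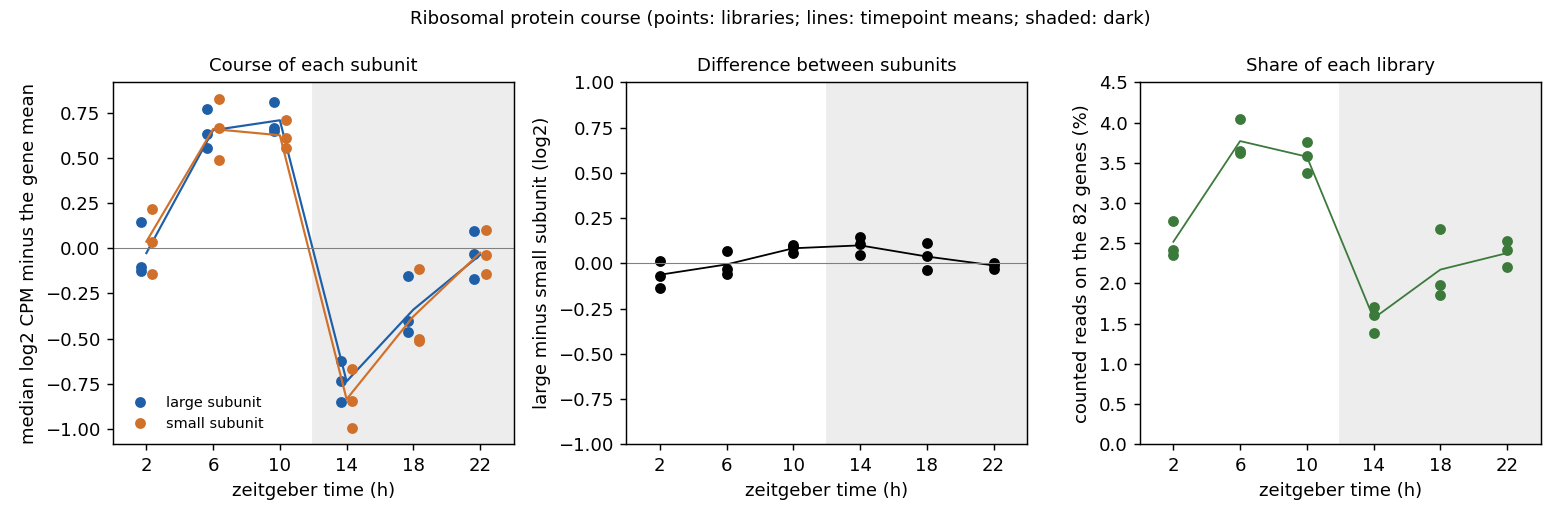
Left, the median centred log2 CPM of large-subunit (blue) and small-subunit (orange) genes in each library against zeitgeber time in hours; middle, their difference; right, the percentage of counted reads on the 82 genes. Points are libraries, lines timepoint means and shading the dark phase. Both subunits have ZT6 and ZT10 highest and ZT14 lowest, and their difference stays between -0.14 and 0.14.

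Individually, 74 of the 82 genes changed with time (edgeR quasi-likelihood F-test over the 6 timepoints, Benjamini-Hochberg adjustment over all 18941 genes, threshold 0.05), where 44.0% of all genes did. They were 42 of 49 large-subunit genes and 32 of 33 small-subunit genes. By mean CPM, 44 members were highest at ZT6 and 31 at ZT10, and 66 were lowest at ZT14. Replicates at the highest and lowest timepoint did not overlap for 80 members, where this held for 76.8% of all genes, a share set by picking the extremes. Every ZT6 and ZT10 library lay above every ZT14 library for 74 members, against 11.7% of all genes. The fitted log2 difference between the highest and the lowest timepoint had a median of 1.61 over members (3.05-fold in mean CPM) and 1.74 over all genes tested, close to each other. Using the JTK_CYCLE test in addition, with its p under 0.05, 58 members were called cycling, 33 large and 25 small, where 29.9% of all genes were. Of these, 48 had their fitted peak at ZT6, 6 at ZT10, 3 at ZT2 and 1 at ZT22, and none at ZT14 or ZT18.

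Among the neighbouring timepoints compared, the step across lights off gave the largest median change. Like the steps from ZT2 to ZT6 and from ZT18 to ZT22, it runs between the pairs within which few genes differed. In such a step, time of day and any batch that a pair shares cannot be told apart. From ZT10 to ZT14, 72 members fell (42 large, 30 small) and 0 rose, where 7.52% of all genes were called lower and 9.31% higher at ZT14. At an unadjusted p under 0.05, 75 members were lower and 0 higher (12.7% and 17.4% of all genes), and DESeq2 called 75 lower and 0 higher (12.1% and 12.0% of the genes to which it gave an adjusted p). The median log2 difference was -1.39 over members and 0.12 over all genes. The 10 members that did not pass were Rpl28, Rpl29, Rpl3, Rpl39l, Rpl7l1, Rpl8, Rplp0, Rps19bp1, Rps2 and Rps29, with the 3 lowest counts of the family (Rpl39l, Rps2 and Rpl29) among them. From ZT2 to ZT6, 47 members rose and 3 fell (Rpl7l1, Rpl4 and Rpl6), where 17.5% of all genes were called higher and 16.3% lower, and the median was 0.69 over members and -0.03 over all genes. From ZT18 to ZT22, 24 members rose and 7 fell, where 6.27% of all genes rose and 11.9% fell, with medians of 0.24 and -0.04. The share that fell, 7 of 82, is no higher than that background. Those that rose include the large-subunit proteins Rpl23a, Rpl10a and Rpl6, each by about 1 on the log2 scale, and those that fell were Rpl13, Rps10, Rps19bp1, Rplp2, Rpl31, Rpl13a and Rpl41.

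Within the pairs ZT6 and ZT10, ZT14 and ZT18, and ZT22 and ZT2, no member passed the edgeR test. Between ZT6 and ZT10 the median over members was 0.05, and over all genes 0.0211% were called higher and 0.0264% lower. At an unadjusted p under 0.05, 1 member was higher and 2 were lower at ZT6, below the 4.21% and 6.57% of all genes, and DESeq2 called 1 lower and 0 higher, against 1.01% and 0.470%. Between ZT22 and ZT2 the median was -0.05, and 0% of all genes were called higher and 0.0317% lower. At an unadjusted p under 0.05, 0 members passed, against 2.00% of all genes higher and 1.59% lower, and DESeq2 called 0, against 0.0321% higher and 0.186% lower. Between ZT14 and ZT18 the median was -0.44, against 0.01 over all genes: 77 of the 82 estimates were below 0, and 0.412% of all genes were called higher and 0.158% lower. At an unadjusted p under 0.05, 46 members were lower and 0 higher at ZT14, against 6.45% of all genes lower and 7.09% higher, and DESeq2 called 18 members lower and 0 higher, against 2.42% and 2.76%. This direction, lower at ZT14 than at ZT18, is the part of the course that lies inside a pair.

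**Figure D2:**
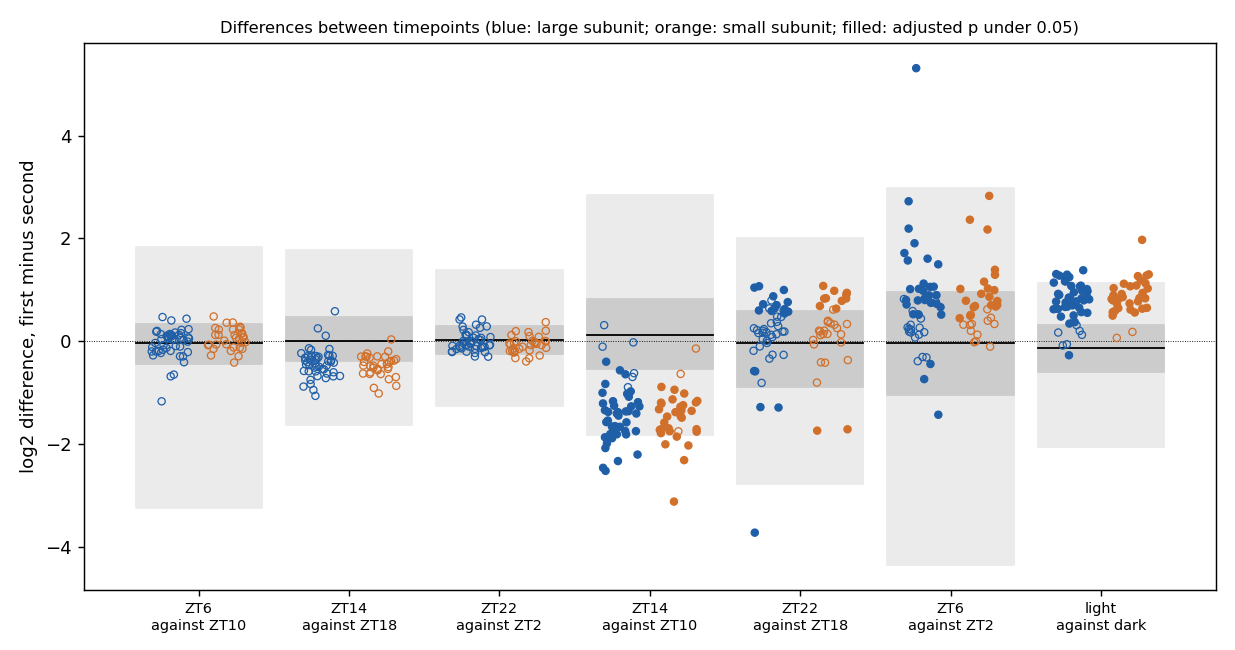
Fitted log2 difference, first minus second timepoint, for 7 comparisons; points are genes with a mean of at least 1 CPM (blue, large subunit; orange, small subunit; filled where the adjusted p is under 0.05). Dark and light grey cover the inner and outer percentile ranges (25 to 75 and 5 to 95) of all genes tested, and the line is their median; members at ZT14 against ZT10 lie nearly all below 0, with 72 filled, while none is filled in the first 3 comparisons.

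Averaged over ZT2, ZT6 and ZT10 against ZT14, ZT18 and ZT22, 71 members were higher in the light, 40 large and 31 small, and 1, Rpl7l1, was lower; over all genes 9.56% were called higher and 14.3% lower. The median log2 difference was 0.82 over members and -0.13 over all genes. Without ZT6 and ZT10, a choice made after seeing how the 2 tables differ, 58 members still changed over the remaining 4 timepoints, all of them among the 74, where 27.9% of 19409 genes did. Every ZT14 and ZT18 library lay below every other library for 22 members, among them Rpl38, Rpl23, Rps15a, Rpl19, Rpl7 and Rps6, against 1.10% of all genes.

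Rpl38 (ENSMUSG00000057322, chr11:114668524-114672331, plus strand), and Rps15a (ENSMUSG00000008683, chr7:118104372-118116188, minus strand) are, with Rpl23, the members closest to the median course of the others (r = 0.99 over 18 libraries for each, a description, since the points share libraries and depth). All 3 were still called as departing from the family course in the test described below. The adjusted p was 0.026 for Rpl38, 5.8e-04 for Rps15a and 0.0054 for Rpl23 (edgeR). Rpl38 is a small protein at the surface of the large subunit. Rpl38 was at 584, 481 and 447 CPM (ZT2), 886, 958 and 777 (ZT6), 773, 949 and 833 (ZT10), 211, 276 and 241 (ZT14), 279, 287 and 431 (ZT18) and 469, 574 and 455 (ZT22) in replicates A, B and C. Every ZT14 library lies below every library of the other timepoints. From ZT10 to ZT14 it fell by 1.81 ± 0.19 on the log2 scale (SE, adjusted p = 9.1e-06, edgeR). Rps15a, a small-subunit protein, gave the same picture. Rps15a was at 346, 304 and 272 CPM (ZT2), 485, 641 and 464 (ZT6), 477, 502 and 482 (ZT10), 100.0, 127 and 131 (ZT14), 161, 171 and 189 (ZT18) and 263, 298 and 247 (ZT22) in replicates A, B and C. The groups of ZT6 and ZT10 overlap each other and lie apart from the rest. It fell from ZT10 to ZT14 by 2.03 ± 0.17 on the log2 scale (SE, adjusted p = 6.2e-07, edgeR). Rpl23, another large-subunit protein, fell by 1.81 ± 0.17 on the log2 scale (SE, adjusted p = 2.5e-06, edgeR). Rpl19, a large-subunit protein often used as a reference gene for qPCR, was no exception. Rpl19 was at 417, 337 and 322 CPM (ZT2), 492, 549.6 and 498 (ZT6), 449.7, 514 and 475 (ZT10), 157, 177 and 159.8 (ZT14), 202, 207 and 288 (ZT18) and 357, 347 and 317 (ZT22) in replicates A, B and C. Its highest and lowest timepoint means differed 3.12-fold, and the 3 ZT14 libraries lie below all others.

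**Figure D3:**
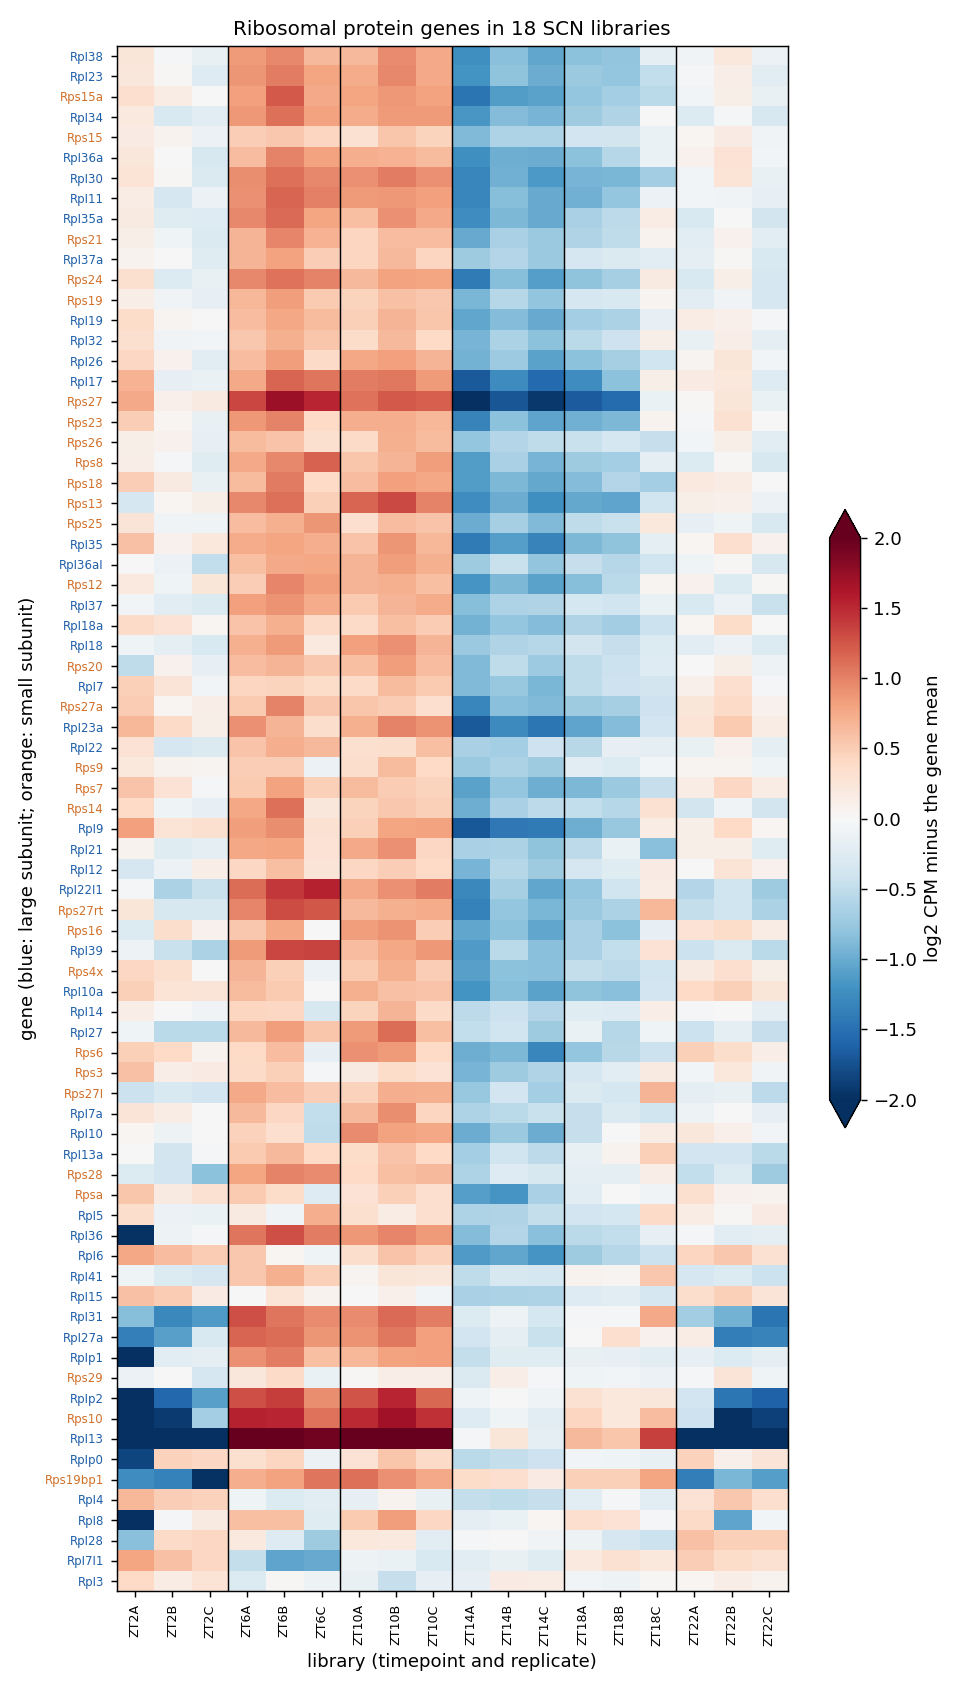
Log2 CPM minus the gene's mean in 18 libraries (columns, grouped by timepoint) for 76 of the 79 members with a mean of at least 10 CPM (the other 3 are not reported here by name), ordered from most to least like the rest of the family; colours are clipped at -2 and 2. Rpl38 to Rps26 at the top share the red ZT6 and ZT10 and blue ZT14 blocks, and the bottom rows from Rpl31 to Rpl3 are less like them. ZT2 replicate A is blue for Rpl36, Rplp1, Rplp0 and Rpl8.

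Across members, r with the rest of the family had a median of 0.92, 0.90 for large and 0.93 for small-subunit genes; 49 members were above 0.9 and 12 below 0.5. Adding the family course to the model as an offset, 50 members departed from it (31 large, 19 small; edgeR, adjusted over all genes). That share is close to the 64.0% of all genes that depart, so the count sets the family apart from nothing. In size, the range of the departure over timepoints was 0.70 (log2) at the median over members and 2.38 over all genes, with 57 of 82 members under 1. The course is made from the same libraries and members, so this is a description.

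Among the departures, a set was lowest at ZT2 and ZT22 and not at ZT14. Every ZT2 and ZT22 library lay below every other library for Rpl13, Rpl31, Rplp2, Rps10 and Rps19bp1, 5 of 82, where 7.93% of all genes show this pattern, so the count is near the background. The most extreme was Rpl13 (ENSMUSG00000000740, chr8:123102350-123105244, plus strand), a large-subunit protein. Rpl13 was at 14.9, 13.6 and 10.1 CPM (ZT2), 605, 551 and 371 (ZT6), 619, 529 and 565 (ZT10), 95.5, 116 and 86.7 (ZT14), 154, 143 and 253 (ZT18) and 13.7, 14.3 and 13.7 (ZT22) in replicates A, B and C. The ZT2 and ZT22 libraries lie between 10.1 and 14.9 CPM, the ZT14 and ZT18 ones between 86.7 and 253, and those of ZT6 and ZT10 at 371 or above, with no overlap between these 3 ranges. From ZT2 to ZT6 Rpl13 rose by 5.31 ± 0.27 on the log2 scale (SE, adjusted p = 2.1e-10, edgeR), and from ZT18 to ZT22 it fell by 3.72 ± 0.25 on the log2 scale (SE, adjusted p = 1.5e-08, edgeR). Its timepoint means span 44.5-fold, and its departure from the family is the largest among members with at least 10 CPM (adjusted p = 6.3e-11, edgeR). The annotation places Snord68 and Mir7079 within its exons, and reads of these cannot be told from its own. This holds for much of the family: exons of 38 of the 82 members overlap another gene, 27 of them a gene on the same strand, among them Rps10 (RPS10-NUDT3), Rplp2 (Snora52) and Rpl4 (Snord16a and Gm22455).

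Rps10 (ENSMUSG00000052146, chr17:27630418-27636669, minus strand), a small-subunit protein near the entry of the mRNA channel, followed that pattern. Rps10 was at 16.003, 18.9 and 44.7 CPM (ZT2), 209, 205 and 152 (ZT6), 200.96, 229.6 and 197 (ZT10), 60.2, 67.7 and 62.1 (ZT14), 96.2, 83.3 and 110.0 (ZT18) and 53.6, 13.4 and 19.7 (ZT22) in replicates A, B and C. Replicate C of ZT2 and replicate A of ZT22 lie well above the other replicates of their timepoints, yet below all ZT14 libraries. It rose from ZT2 to ZT6 by 2.83 ± 0.42 on the log2 scale (SE, adjusted p = 6.0e-05, edgeR). Rplp2 (ENSMUSG00000025508, chr7:141447370-141451585, plus strand), an acidic protein of the stalk, did likewise. Rplp2 was at 62.3, 85.3 and 119 CPM (ZT2), 620.4, 661 and 479.5 (ZT6), 604, 729.8 and 559.8 (ZT10), 238, 254 and 237 (ZT14), 312, 293 and 295 (ZT18) and 193, 92.5 and 82.5 (ZT22) in replicates A, B and C. The change from ZT2 to ZT6 was 2.72 ± 0.29 on the log2 scale (SE, adjusted p = 1.5e-06, edgeR), and from ZT18 to ZT22 it fell by 1.29 ± 0.27 on the log2 scale (SE, adjusted p = 0.0028, edgeR). Rpl31, at the exit of the peptide tunnel, had timepoint means of 13.5 ± 2.12 CPM (ZT2), 61.7 ± 7.52 (ZT6), 58.5 ± 3.66 (ZT10), 24.3 ± 2.21 (ZT14), 34.8 ± 11.6 (ZT18) and 14.3 ± 3.61 (ZT22), each ± SD with n = 3, and fell from ZT18 to ZT22 by 1.28 ± 0.24 on the log2 scale (SE, adjusted p = 0.0011, edgeR). Rps19bp1, the binding protein that is not a ribosomal subunit, had means of 5.64 ± 1.43 CPM (ZT2), 29.0 ± 3.66 (ZT6), 30.2 ± 3.62 (ZT10), 19.4 ± 1.46 (ZT14), 23.9 ± 3.09 (ZT18) and 7.28 ± 1.2004 (ZT22), each ± SD with n = 3. Rpl27a came close to the same pattern, but replicate C of ZT2, at 47.5 CPM, lies within the range of the ZT14 libraries. Replicate A of ZT22, at 64.7 CPM, lies above all ZT14 libraries and within the range of the ZT18 ones.

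Every ZT2 and ZT22 library lay above every other library for 2 of 82 members, Rpl4 and Rpl7l1, a share no higher than the 4.21% of all genes that show this pattern. The first is Rpl4 (ENSMUSG00000032399, chr9:64173375-64178666, plus strand), a large-subunit protein that reaches into the peptide tunnel. Rpl4 was at 1519.7, 1353 and 1327 CPM (ZT2), 904, 795 and 819.6 (ZT6), 856, 1006 and 865 (ZT10), 693, 674 and 702 (ZT14), 825, 946 and 828 (ZT18) and 1171, 1393 and 1214 (ZT22) in replicates A, B and C. It fell from ZT2 to ZT6 by 0.74 ± 0.13 on the log2 scale (SE, adjusted p = 3.4e-04, edgeR), opposite in sign to the family's median of 0.69, and rose from ZT18 to ZT22 by 0.54 ± 0.13 on the log2 scale (SE, adjusted p = 0.0084, edgeR). Rpl15 and Rpl6, both large-subunit proteins, also had their highest mean at ZT2. Rpl15 means were 253 ± 37.2 CPM (ZT2), 203 ± 20.9 (ZT6), 189 ± 9.88 (ZT10), 121 ± 1.42 (ZT14), 154 ± 6.22 (ZT18) and 240.5 ± 18.2 (ZT22), each ± SD with n = 3. Rpl6 means were 304 ± 27.4 CPM (ZT2), 224 ± 53.3 (ZT6), 271 ± 21.9 (ZT10), 90.8 ± 4.57 (ZT14), 132 ± 13.1 (ZT18) and 264 ± 21.9 (ZT22), each ± SD with n = 3; Rpl6 fell from ZT2 to ZT6 by 0.44 ± 0.16 on the log2 scale (SE, adjusted p = 0.043, edgeR). For these 3 genes ZT14 remained the lowest timepoint, as in the family. Rpl7l1 (ENSMUSG00000063888, chr17:46773907-46782672, minus strand), a paralog of Rpl7 that acts in ribosome assembly, was lowest at ZT6 instead. Rpl7l1 was at 212, 184 and 164 CPM (ZT2), 87.5, 58.8 and 61.0 (ZT6), 114, 112 and 99.3 (ZT10), 106, 110.4 and 104 (ZT14), 139.7, 151 and 141 (ZT18) and 173, 158 and 152 (ZT22) in replicates A, B and C. No ZT6 library reaches the level of any other library. From ZT2 to ZT6 Rpl7l1 fell by 1.43 ± 0.16 on the log2 scale (SE, adjusted p = 3.7e-06, edgeR), and it was the only member called lower in the light, with a difference of -0.27 ± 0.09 on the log2 scale (SE, adjusted p = 0.040, edgeR).

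**Figure D4:**
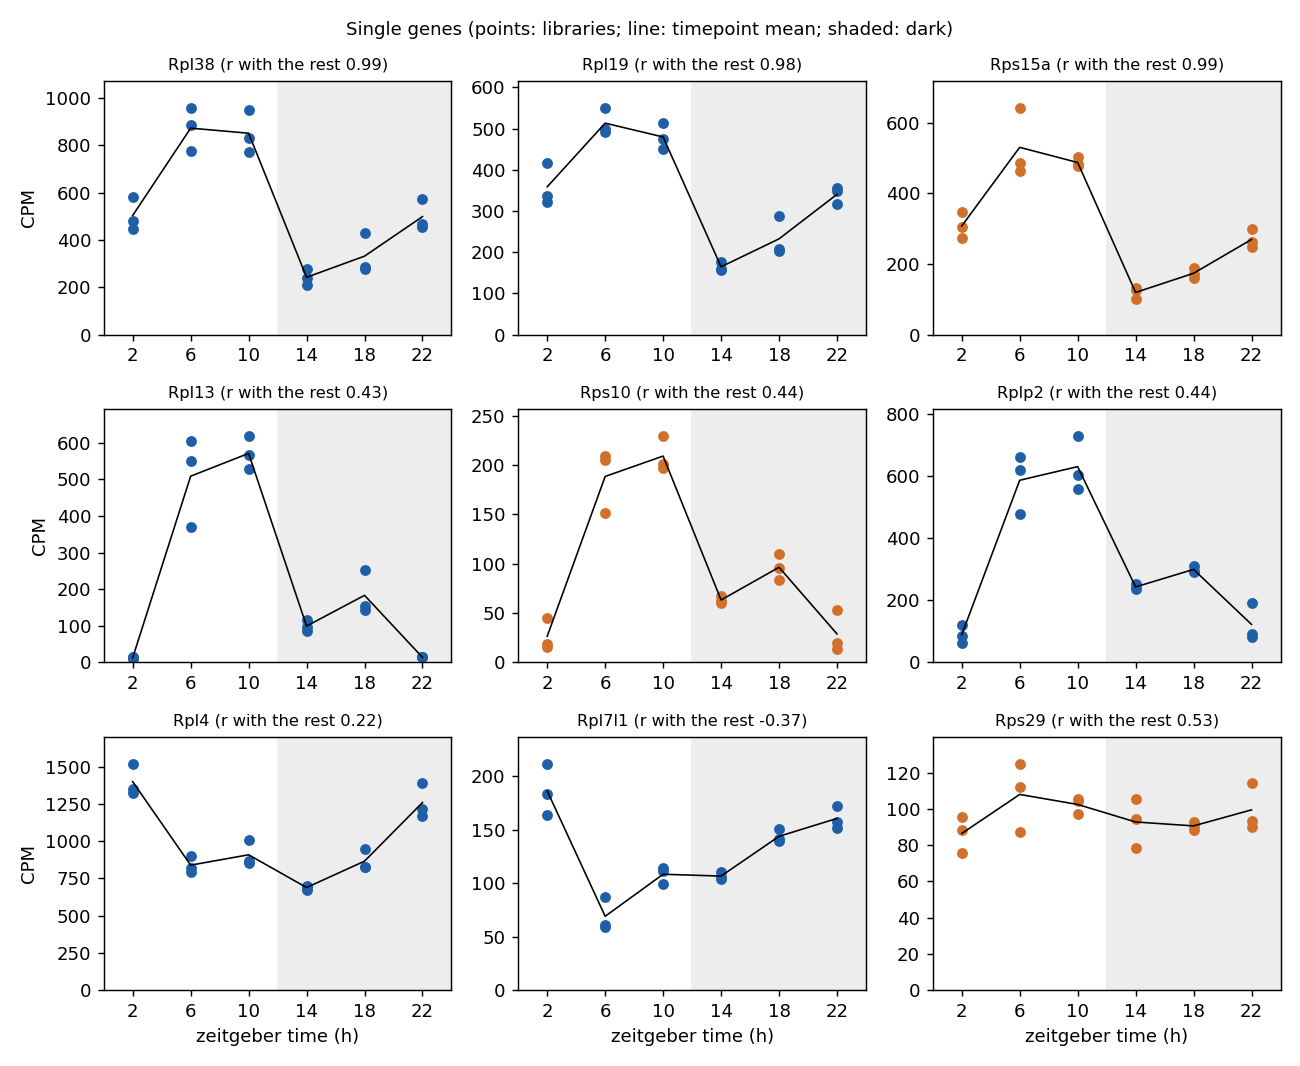
CPM in each library against zeitgeber time in hours for 9 genes (blue, large subunit; orange, small subunit), with the line through timepoint means, every axis from 0 and the dark phase shaded. The top row follows the family, Rpl13, Rps10 and Rplp2 are lowest at ZT2 and ZT22, Rpl4 is highest there, Rpl7l1 is lowest at ZT6, and Rps29 stays between 75.6 and 125 CPM.

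For 8 members no change with time was called: Rpl28, Rpl29, Rpl3, Rpl39l, Rpl5, Rpl8, Rplp0 and Rps29. The flattest was Rps29, a zinc-binding protein of the small subunit. Rps29 was at 88.1, 95.5 and 75.6 CPM (ZT2), 112, 125 and 87.2 (ZT6), 97.2, 105 and 105 (ZT10), 78.6, 105 and 94.3 (ZT14), 90.8, 92.5 and 88.4 (ZT18) and 93.5, 114 and 90.2 (ZT22) in replicates A, B and C. All 18 libraries lie between 75.6 and 125 CPM, and the light against dark difference was 0.06 ± 0.10 (log2, SE). Rps29 did depart from the family, which fell where it did not (adjusted p = 1.0e-05, edgeR). Rpl3, one of the largest proteins of the large subunit, had only 10.7 CPM on average, with means of 12.9 ± 1.116 CPM (ZT2), 9.85 ± 1.00 (ZT6), 8.94 ± 1.05 (ZT10), 11.1 ± 1.38 (ZT14), 10.3 ± 0.409 (ZT18) and 11.2 ± 0.390 (ZT22), each ± SD with n = 3, and is among the genes whose recovered reads differ: 382 against 641 counted at ZT6. With pseudogene reads added, and with recovered reads, Rpl3 passed the time test. Rpl28 and Rplp0 passed it once replicate A of ZT2 was left out (adjusted p = 0.023 and 0.0011, edgeR), Rpl5 once replicate C of ZT18 was, and Rpl29, at 2.27 CPM, only with DESeq2 or with pseudogene reads. Rpl8, a large-subunit protein, did not in any fit that left out a library. Its means were 551 ± 372 CPM (ZT2), 935 ± 281 (ZT6), 1096 ± 175 (ZT10), 677 ± 57.4 (ZT14), 835 ± 112 (ZT18) and 659.9 ± 297 (ZT22), each ± SD with n = 3, with replicate A of ZT2 at 126 CPM and replicate B of ZT22 at 348 CPM below the others. Rpl28 means were 43.6 ± 17.8 CPM (ZT2), 35.2 ± 10.8 (ZT6), 43.2 ± 6.82 (ZT10), 40.1 ± 1.04 (ZT14), 33.7 ± 4.04 (ZT18) and 58.4 ± 2.69 (ZT22), each ± SD with n = 3.

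Of the stalk proteins, Rplp2 departed from the family course, and no departure was called for Rplp0 and Rplp1. Rplp0, the scaffold of the stalk, was at 120.4 CPM in replicate A of ZT2 and at 591 and 570.4 in the other replicates. Without that library the mean at ZT2 was 581 CPM, and the log2 difference between ZT6 and ZT2 was -0.21 ± 0.17 (SE). Rplp1 was at 97.4 CPM in replicate A of ZT2 and at 405 and 411 in the others. Rplp1 was at 97.4, 405 and 411 CPM (ZT2), 895, 964 and 716 (ZT6), 746, 829 and 835 (ZT10), 341, 399 and 400.4 (ZT14), 426, 421 and 407 (ZT18) and 423, 389 and 412 (ZT22) in replicates A, B and C. From ZT2 to ZT6 it rose by 1.49 ± 0.33 on the log2 scale (SE, adjusted p = 0.0020, edgeR), and by 1.07 ± 0.16 without ZT2 replicate A. Rplp1 reads recovered from the normalised table were 31289 against 56137 counted at ZT6, and with recovered reads it no longer passed the time test. Rplp2 is given above. Rpsa, a small-subunit protein that is also known as a laminin receptor precursor, had means of 611 ± 82.03 CPM (ZT2), 568 ± 149.9 (ZT6), 617 ± 40.6 (ZT10), 247 ± 51.8 (ZT14), 450.1 ± 36.9 (ZT18) and 537 ± 55.6 (ZT22), each ± SD with n = 3 and fell from ZT10 to ZT14 by 1.32 ± 0.20 on the log2 scale (SE, adjusted p = 2.1e-04, edgeR).

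The largest fitted changes among members that passed the time test, with separate replicates, were those of Rpl13 (5.48), Rps27 (3.48), Rps10 (2.98), Rplp2 (2.83) and Rpl17 (2.50), as log2 of the highest over the lowest timepoint. Rps27 (ENSMUSG00000090733, chr3:90212522-90213651, minus strand), a zinc-finger protein of the small subunit, had the family's shape and more than its size. Rps27 was at 338, 216 and 227 CPM (ZT2), 506, 659 and 578 (ZT6), 424, 471 and 459 (ZT10), 41.9, 61.0 and 52.9 (ZT14), 63.1, 69.1 and 184 (ZT18) and 203, 237 and 182 (ZT22) in replicates A, B and C. From ZT10 to ZT14 Rps27 fell by 3.12 ± 0.33 on the log2 scale (SE, adjusted p = 9.9e-06, edgeR). This value rests on one of the tables: Rps27 had 37775 counted reads over the ZT6 libraries and 40 recovered ones, but 46690 in both at the other 4 timepoints, so with recovered reads the log2 difference between ZT6 and ZT14 was -6.16 in place of 3.48. Rpl17, a protein of the tunnel exit, had means of 18.4 ± 6.62 CPM (ZT2), 32.4 ± 4.54 (ZT6), 31.7 ± 2.39 (ZT10), 5.74 ± 0.889 (ZT14), 11.1 ± 5.64 (ZT18) and 16.8 ± 2.86 (ZT22), each ± SD with n = 3. Among the smallest changes that passed were those of Rpl41 (0.97) and Rpl4 (1.02). Rpl41, the smallest protein of the ribosome, had means of 861 ± 80.7 CPM (ZT2), 1500.4 ± 126 (ZT6), 1134 ± 78.8 (ZT10), 766 ± 52.3 (ZT14), 1185 ± 237 (ZT18) and 792 ± 44.6 (ZT22), each ± SD with n = 3; unlike most members, it was lower at ZT22 than at ZT18, with a difference of -0.58 ± 0.15 on the log2 scale (SE, adjusted p = 0.012, edgeR).

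Levels differed by more than 3 orders of magnitude between members. Mean CPM over the 18 libraries ran from 0.34 for Rpl39l to 1942 for Rps14, with a median of 218. Per kilobase of annotated exon, which corrects for length, the highest were Rpl32 at 1305, Rps27rt at 1119, Rplp1 at 1059.8 and Rpl38 at 1016 CPM per kilobase, with a median of 99.5 over all members, 78.2 for large and 143 for small-subunit genes. All 4 fell from ZT10 to ZT14 in the counts, Rpl32 by 1.27 ± 0.18 on the log2 scale (SE, adjusted p = 1.6e-04, edgeR); with recovered reads Rps27rt turned to 0.55 ± 0.28 and Rplp1 was at -0.41 ± 0.32 (SE), neither of which passed. Exon length here is the union over all annotated transcripts, and genes with a long union, such as Rps15a at 6270 nt, come out low on this scale. At the other end Rpl29, Rps2 and Rpl39l lie below 10 CPM. Ribosomal protein genes have many processed pseudogenes: 219 annotated ones, with reads equal to 18.6% of the members' own, could be tied by symbol to 55 members, and reads that map to both cannot be placed by such counting.

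**Figure D5:**
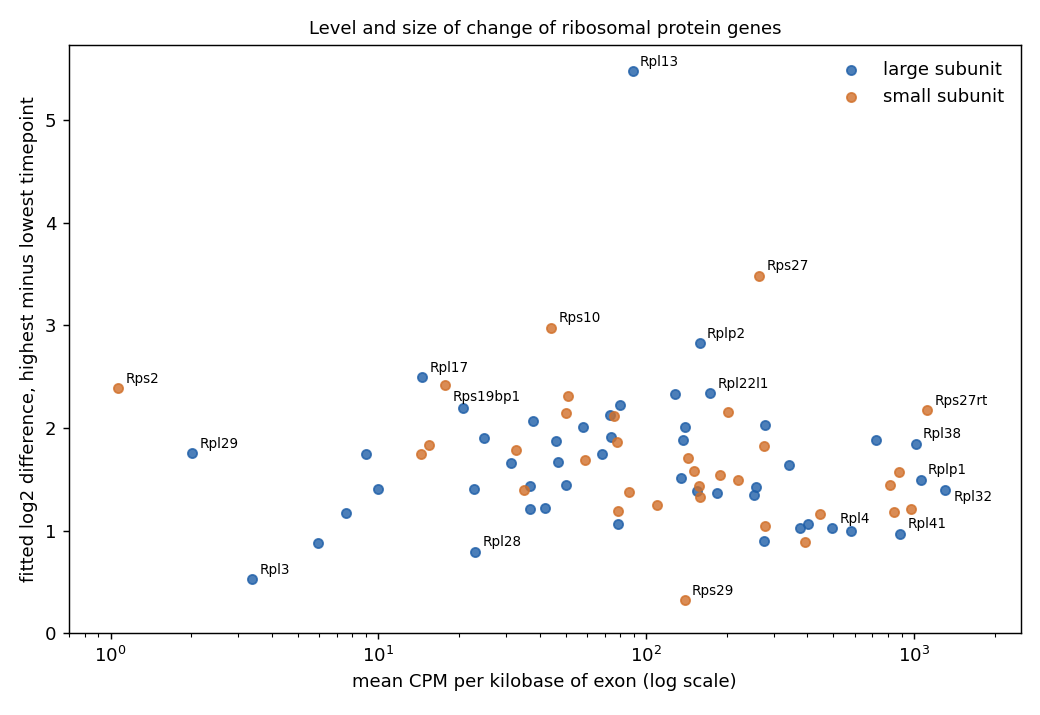
Mean CPM per kilobase of exon (log scale) against the fitted log2 difference between the highest and lowest timepoint for 81 members with a mean of at least 1 CPM (blue, large; orange, small subunit). Levels span from 1.07 for Rps2 to 1305 for Rpl32, most differences lie between 1 and 2.5, and Rpl13 at 5.48 and Rps27 at 3.48 lie above the rest.

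Paralogs within the rule can be set beside the genes they copy. Rps4l, also on the list of paralogs, is not among the members and is not compared here. Rpl22l1, a copy of Rpl22 with roles in RNA binding, had means of 225 ± 49.8 CPM (ZT2), 737 ± 109 (ZT6), 532 ± 48.1 (ZT10), 146 ± 32.3 (ZT14), 233 ± 76.2 (ZT18) and 194 ± 21.4 (ZT22), each ± SD with n = 3, and Rpl22 of 110.4 ± 28.0 CPM (ZT2), 183 ± 9.85 (ZT6), 157 ± 17.4 (ZT10), 78.4 ± 8.26 (ZT14), 95.04 ± 13.5 (ZT18) and 110.4 ± 11.2 (ZT22), each ± SD with n = 3. Both fell from ZT10 to ZT14, Rpl22l1 by 1.87 ± 0.23 on the log2 scale (SE, adjusted p = 4.2e-05, edgeR) and Rpl22 by 1.00 ± 0.18 on the log2 scale (SE, adjusted p = 1.0e-03, edgeR); the difference between them was not tested. Rpl36al fell by 1.38 ± 0.16 on the log2 scale (SE, adjusted p = 1.9e-05, edgeR) and Rpl36a by 1.75 ± 0.20 on the log2 scale (SE, adjusted p = 1.6e-05, edgeR). Rps27l, with means of 64.7 ± 2.78 CPM (ZT2), 129 ± 11.8 (ZT6), 131 ± 13.2 (ZT10), 55.1 ± 7.75 (ZT14), 89.4 ± 38.5 (ZT18) and 69.2 ± 9.64 (ZT22), each ± SD with n = 3, and Rps27rt, with means of 334 ± 77.9 CPM (ZT2), 817 ± 95.5 (ZT6), 585 ± 22.1 (ZT10), 181 ± 35.6 (ZT14), 339.5 ± 200.3 (ZT18) and 254 ± 21.8 (ZT22), each ± SD with n = 3, are near copies of Rps27. Recovered reads at ZT6 were 10017 against 53123 counted for Rps27rt and 40 against 37775 for Rps27. Whether the counting split reads between these genes was not tested. Rpl7 fell from ZT10 to ZT14 by 1.37 ± 0.15 on the log2 scale (SE, adjusted p = 1.5e-05, edgeR) where the estimate for Rpl7l1 was -0.02 ± 0.16. Rpl39, which lines the peptide tunnel, had means of 134 ± 25.6 CPM (ZT2), 398 ± 74.4 (ZT6), 294 ± 24.7 (ZT10), 98.8 ± 20.4 (ZT14), 148 ± 54.8 (ZT18) and 130.4 ± 12.0 (ZT22), each ± SD with n = 3; its copy Rpl39l had reads in 8 libraries only, at no more than 2.93 CPM, and is given no fold.

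Large and small subunits are set side by side, with no test of the difference. The difference of their medians, large minus small, averaged -0.06 ± 0.08 (ZT2), -0.01 ± 0.07 (ZT6), 0.08 ± 0.02 (ZT10), 0.10 ± 0.05 (ZT14), 0.04 ± 0.08 (ZT18) and -0.01 ± 0.02 (ZT22), in log2 with the SD over n = 3 libraries. From ZT10 to ZT14 the median log2 difference was -1.38 for large and -1.46 for small-subunit genes, from ZT2 to ZT6 0.73 and 0.67, and from ZT18 to ZT22 0.24 and 0.26. In reads, the large subunit took 0.76-2.00% and the small 0.63-2.04% of a library. Of the 12 members with r below 0.5, 10 were counted as large-subunit and 2 as small-subunit genes by symbol. The 10 include Rpl29 and Rpl39l, below 10 CPM, and Rpl8 and Rplp0, low in replicate A of ZT2. They also include the paralog Rpl7l1, which acts in ribosome assembly. The 2 were Rps10 and Rps19bp1, of which the latter encodes a binding protein and not a subunit.

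Other genes of the translation machinery give the setting. Counts from ZT10 to ZT14 are to be read against the 7.52% of all genes that were called lower and the 9.31% called higher. Of the 74 mitochondrial ribosomal protein genes, 60 changed with time, where 44.0% of all genes did. From ZT10 to ZT14, 26 of them fell, Mrpl23 and Mrps30 most, and 0 rose, with a median of -0.49. Their median centred log2 CPM stood highest for ZT10, with 0.40, and lowest for ZT2, with -0.18, a smaller range than that of the cytosolic genes. Among 20 other mRNAs known to carry a TOP tract, 10 fell from ZT10 to ZT14 and 1 rose. Hnrnpa1, an RNA-binding protein, fell by 1.65 ± 0.19 and Btf3, of the nascent chain complex, by 1.60 ± 0.18, while Eef2, the elongation factor that moves the ribosome along, rose by 1.14 ± 0.21 (log2, SE; adjusted p = 2.4e-05, 1.3e-05 and 0.0012, edgeR). Eef2 was at 520.0 ± 6.39 CPM at ZT10 and 1148 ± 158 at ZT14 (SD, n = 3). Fau and Rack1, ribosomal proteins whose symbols fall outside the rule, both fell, by 1.31 ± 0.15 and 0.55 ± 0.17. Of 45 ribosome biogenesis factors, 12 rose from ZT10 to ZT14, Rrp12 and Bop1 most, and 5 fell, Utp18 and Nop10 most, with a median of 0.31; the share that fell is near that background. Of 16 regulators in the mTORC1 and TOP list, 5 rose: the kinase Mtor itself by 1.31 ± 0.27, its partner Mlst8 by 1.23 ± 0.22, the inhibitors Tsc1 by 0.93 ± 0.22 and Tsc2 by 1.67 ± 0.28, and Rps6kb2, an S6 kinase, by 5.72 ± 0.57 (log2, SE). Rps6kb2 was close to 0 at ZT6 and ZT10, with 15 and 21 counted reads over 3 libraries and means of 0.23 and 0.32 CPM, against 12.3-17.2 CPM at the other timepoints, and its difference was 5.70 ± 0.62 with recovered reads. The activator Rheb fell by 1.49 ± 0.26, 1 of 16, which is no higher than the background. Of 177 annotated ribosomal protein pseudogenes tested, 49 fell and 5 rose, with a median of -0.75.

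The change from ZT10 to ZT14 differed with exon length. Exon length is again the union over all annotated transcripts, which can exceed the length of the messages present. Some genes may therefore stand in too long a class. Of the members, 6 lie in the longest class, Rps15a (6270 nt) among them. Ribosomal protein genes are short, with a median of 1776 nt of exon against 3573 nt over all genes tested. Among other protein-coding genes the median log2 difference from ZT10 to ZT14 was -0.74 under 1000 nt, -0.46 from 1000 nt to below 2000 nt, -0.01 from there to below 4000 nt and 0.33 from 4000 nt on. Members in the same classes had medians of -1.31, -1.43, -1.39 and -1.41, lower than the other genes in each class and alike in all 4. Because the classes rest on the union of exons, this likeness cannot show whether message length mattered. From ZT2 to ZT6 the other genes ran from 0.57 in the shortest class to -0.22 in the longest, and members from 0.59 to 0.83 with no order by length. Between ZT14 and ZT18 other genes ran from -0.25 to 0.11 and members from -0.55 to -0.39. The part of length in the members' course was not tested.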

How the data were processed

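RNA from laser-captured SCN was amplified from about 1 ng (SMARTer, not stranded) and sequenced as paired ends; the submitters' processing notes name GSNAP, HTSeq 0.5.4p1, DESeq2 and the build mm10 (GRCm38). The authors deposited a table of counts per gene, 1 column for each of 18 replicates with 3 technical replicates combined. They also deposited a table of counts divided by size factors, a normalised signal, from which whole reads were recovered (100% of values whole, tolerance 0.1). The count test on recovered reads called 9367 of 20822 genes changed with time. Sample headers of the count table stand 1 column to the left and were matched by name; 0 per-sample columns were left out.

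Counts were tested with edgeR 4.0.16 (R 4.3.3): TMM, 6 timepoints as a factor, quasi-likelihood F-tests, and Benjamini-Hochberg adjustment over 18941 genes (1 read or more in over 6 libraries). SE is the log2 difference divided by the square root of F. Cycling also required JTK_CYCLE p under 0.05 (exact null, Bonferroni over lags). The script was tested on simulated counts. P-values rest on 3 pools of mice per timepoint. Totals of 15412981 to 35820945 counts per library set the precision; intervals cover no amplification error.

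The members and gene lists were chosen with earlier results of these data known. Genes were named by rule: the 5 largest and 3 smallest changes that passed with separate replicates, the 5 highest levels per kilobase, the 6 least and 3 most like the family (at least 10 CPM), the largest departures, paralogs, stalk proteins, Rpsa and Rpl19; others were named after their values were seen. Some genes that the rule names are not reported here by name, and all members enter the counts and medians. Alternatives were DESeq2 1.42.0, its size factors, upper-quartile scaling, TMM without the members, other filters, a replicate block, recovered reads, pseudogene reads added to members, and each replicate left out. No protein sequences were used here, and promoters come from RefSeq (GRCm38.p6).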

Additional observations from a re-analysis of the deposited data

How the results depend on the processing

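The count of members changed with time lay between 73 (recovered reads) and 76 (DESeq2, or pseudogene reads added) when all timepoints were kept. Over all genes the share was 45.0% with recovered reads, 52.7% with DESeq2 and 43.8% with pseudogene reads added, against 44.0% in the main fit. All 74 calls held whichever replicate was left out. With the JTK_CYCLE p adjusted over genes, 44 members and 19.3% of all genes were cycling. Between ZT14 and ZT18, where 0 members passed, DESeq2 called 18, 2 passed without the read filter (0.492% of all genes), and 1 each with DESeq2 size factors (0.533%), with a mean of at least 10 counts (0.881%) and without ZT6 and ZT10 (0.489%), an alternative chosen after seeing the data; leaving out replicate C of ZT6 gave 6 (1.19%). DESeq2 called 1 member between ZT6 and ZT10. Without ZT6 and ZT10, 24 members departed from the family, over fewer timepoints, a share no higher than the 32.8% of all genes. Upper-quartile scaling gave medians of -1.55 (ZT14 against ZT10) and 0.39 (ZT22 against ZT18), where the median of all genes moved from 0.12 to -0.02 and from -0.04 to 0.11. With recovered reads Rps27 reversed to -6.16 and Rps27rt went to -0.0078, close to no difference (highest minus lowest timepoint of the counts). Rps12 turned from -1.71 to 6.53 (ZT14 against ZT10), and Rplp1 and Rpl14 no longer passed the time test, also with recovered reads.

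Leaving out 1 replicate at a time gave 74-76 members changed with time, 51-62 cycling, 42-52 departing, 67-73 called for ZT14 against ZT10, 0-6 for ZT14 against ZT18, 20-34 for ZT22 against ZT18 (20 without replicate B of ZT22, against 31), 40-57 for ZT6 against ZT2, 0-1 for ZT6 against ZT10, 0 for ZT22 against ZT2 and 69-73 for light against dark. The share of all genes that changed with time ran from 39.9% (without replicate C of ZT22) to 48.6% (without replicate C of ZT18). For the other counts of this paragraph the share over all genes is not given here, so they show only how far each count moved.

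Replicate letters did not pair the libraries: deviations of same-letter libraries from their timepoint means correlated between -0.129 and 0.070 over 45 pairs, and 6 of 18 libraries were closest to their own letter. With a replicate block 74 members changed with time, and 7847 of all genes did, against 8343. The block gave 71 members called for ZT14 against ZT10, 31 for ZT22 against ZT18 and 71 for light against dark. For these comparisons the share over all genes with the block is not given here, so they show only how far the counts moved. Depth limits the 3 members below 10 CPM, for which a missed call says little.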
